A study of Drosophila melanogaster with 14 samples.

Results

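The comparison described here set flies that carry both the pan-neuronal driver elav-Gal4 and a UAS-TrpA1 transgene against flies that carry UAS-TrpA1 alone, across all genes expressed in either group. Of 13312 genes in the expression table of these groups, 8980 had 1 FPKM or more (fragments per kilobase of exon, scaled to the library total) in at least 2 of the 4 libraries and were kept. The series lists 15490 genes over its 3 expression tables and holds 14 libraries, of which these are 4. For each kept gene the difference of the group means of log2(FPKM + 1) was taken, less the median difference of all kept genes.

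One set of flies had the genotype Elav-Gal4;+;UAS-TrpA1, hereafter the driven flies, and the controls had w;+;UAS-TrpA1, so both groups carry the transgene and the control has no Gal4. Both groups are labelled as adult males 5 to 7 days old that were kept at room temperature, with about 50 flies behind each library and 2 libraries in each group (n = 2 throughout). A warm shift is not among the treatments in the labels. The tissue is brain in the labels, whereas the series description speaks of heads. The stated question was which pathways lie downstream of TrpA1, among other genotypes, and of the hyperexcitability of these flies. Nothing in the labels states that both libraries of a group were collected independently, and p-values therefore reflect just the spread between these libraries, which may be technical.

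TrpA1 is a cation channel of the TRP family that opens on warming, and flies use it to sense heat. Gal4 is a yeast transcription factor that switches on genes placed behind its UAS binding sites, and the promoter of elav, an RNA-binding protein gene of neurons, directs it to neurons throughout the nervous system. Warming flies that express TrpA1 this way depolarizes the neurons that carry it, and the construct is used to raise neuronal firing at will.

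The libraries held 19235298 and 19262368 fragments in the driven group and 17162942 and 19911318 in the UAS-TrpA1 group. A floor of 3 fragments for a gene with 1 kb of exon then lay between 0.151 and 0.175 FPKM, and it covers counting error only. Markers of sex did not stand alike in the groups, although both are labelled male. The yolk protein genes Yp1, Yp2 and Yp3, which are transcribed in the female fat body and ovary, summed to 12.8 and 15.1 FPKM in the driven libraries against 864 and 878 FPKM in the UAS-TrpA1 libraries. The male-specific dosage compensation RNA lncRNA:roX2 stood at 96.3 and 91.2 FPKM in the driven libraries against 21.4 and 21.2 FPKM in the UAS-TrpA1 libraries, and lncRNA:roX1 had 162 and 156 FPKM in driven against 99.5 and 99.9 FPKM in UAS-TrpA1 libraries. Of 25 genes listed for yolk, eggshell and oogenesis 4 passed the filter, and Yp1, Yp2, Yp3 and the chorion gene Cp19 were all lower. Since such genes can pass through the UAS-TrpA1 libraries alone, that count is a description. Without the filter 3 of 15 were lower and 2 higher. The UAS-TrpA1 libraries thus held yolk protein RNA at a level not found in the driven ones and also held both roX RNAs. The sex or sexes of the flies behind them cannot be told from these values. In the other 2 tables, which were normalized separately, Yp2 stood at 145 to 150.4 FPKM in the elav-Gal4 driver alone and at 313 to 351 in Shal495, but at 0.281 to 1.05 FPKM in w1118, UAS-APP and elav-Gal4 UAS-APP. Sex markers and genotype cannot be told apart in the comparison below, since they change together in both libraries of a group.

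**Figure D1:**
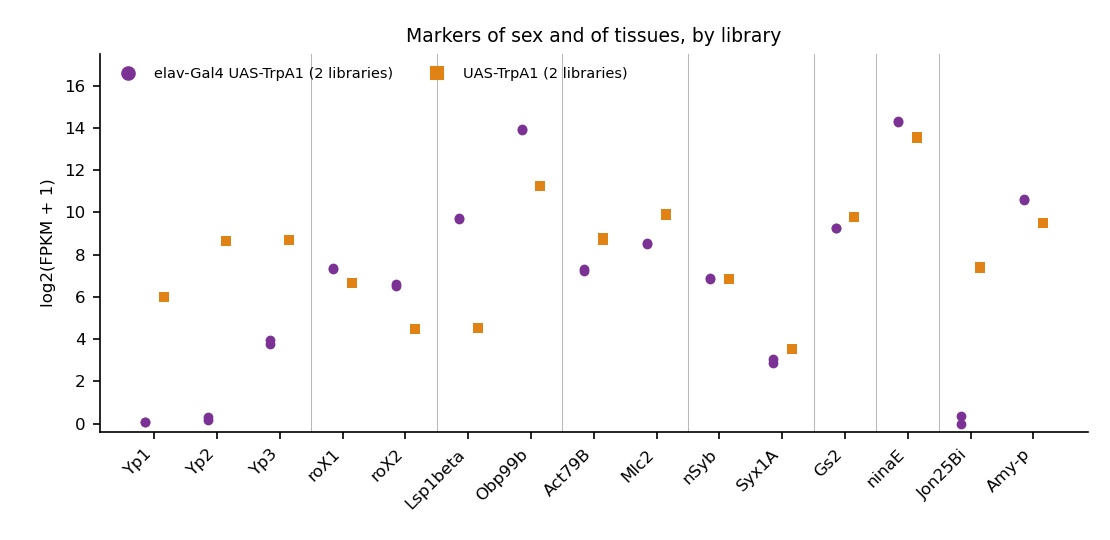
Level of 15 marker genes on the log2(FPKM + 1) scale (vertical axis) in each library, with driven libraries as circles on the left of each pair and UAS-TrpA1 libraries as squares on the right. From the left the genes mark yolk, male dosage compensation, fat body, muscle, neurons, glia, photoreceptors and gut. Yp1 and Yp2 are near 0 in the driven libraries, where Lsp1beta and Obp99b are higher than in the UAS-TrpA1 libraries.

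A large share of genes differed between the groups, mostly by a small amount. By limma with Benjamini-Hochberg adjustment over all kept genes, 2384 genes were higher in the driven flies (26.5%) and 2259 were lower (25.2%), together 51.7% of the 8980. The median size of a called difference was 0.42 on the log2 scale. A difference of at least 1 on that scale was found for 553 genes (6.16%), of which 286 were higher (3.18%) and 267 lower (2.97%). At sizes of 3 or more the falls prevailed, with 14 genes higher and 41 lower. In FPKM as deposited, the libraries of the 2 groups did not overlap for 80.9% of the kept genes. Replicates differed by a chi-square per gene of 3.58 in the driven group and 2.35 in the UAS-TrpA1 group, where sampling noise alone gives 1. Without the subtraction of the median, which was -0.16, 1495 genes were higher and 3944 lower (27.5% and 72.5% of the calls, in place of 51.4% and 48.6%), so a direction below is always relative to the median gene.

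**Figure D2:**
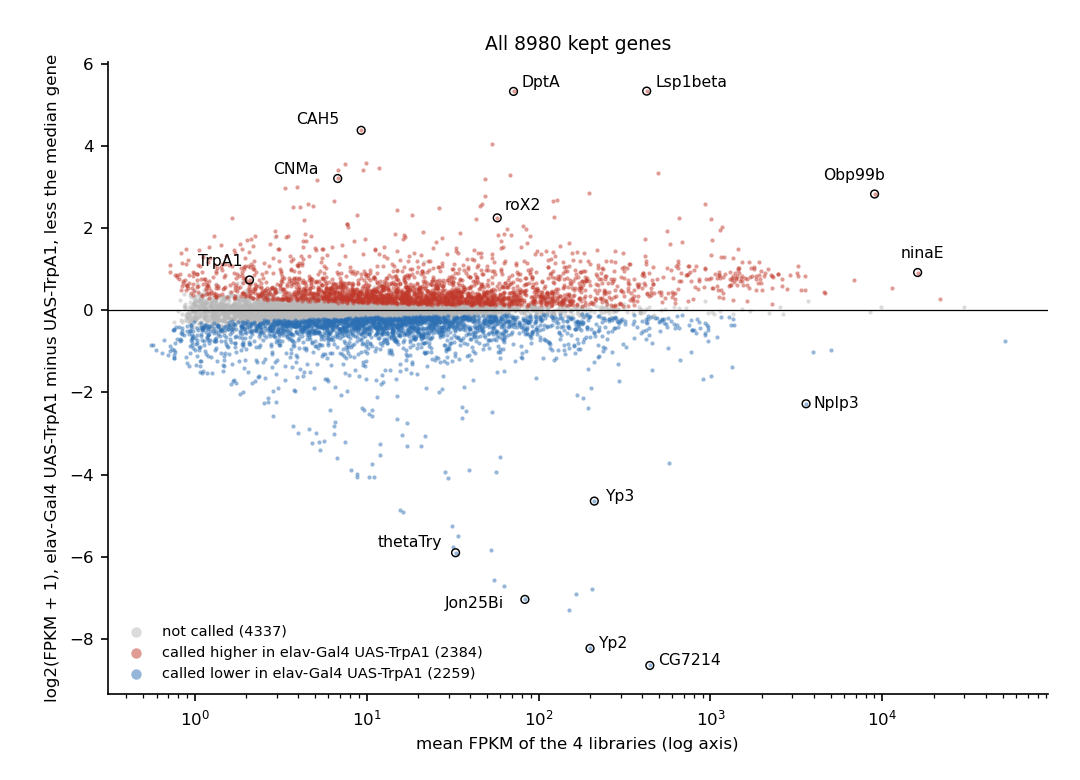
Mean FPKM of the 4 libraries (horizontal, log axis) against the log2(FPKM + 1) difference of driven minus UAS-TrpA1 flies, less the median gene (vertical), for all 8980 kept genes. Red points are the 2384 genes called higher and blue points the 2259 called lower, and the falls reach beyond -8 for CG7214 and Yp2.

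The targeted gene was low in all 4 libraries. TrpA1 (3L, 8894404 to 8904790 on BDGP6) stood at 2.76 and 2.62 FPKM in the driven libraries against 1.48 and 1.48 in the UAS-TrpA1 libraries, a log2 difference of 0.74 ± 0.089 (SE; adjusted p = 0.000683). The groups did not overlap, but the driver alone, which carries no UAS-TrpA1, had 2.92 and 2.83 FPKM in its own table. Whether the deposited values count transcripts of the transgene is not stated. The driver's source gene elav stood at 4.93 and 5.32 FPKM in the driven libraries against 4.76 and 4.98 FPKM in the UAS-TrpA1 libraries, so the groups overlap. Its log2 difference of 0.22 (adjusted p = 0.0499) was just past the threshold, and it was 0.06 without the subtraction of the median (adjusted p = 0.519). The gene w, whose product carries eye pigment precursors and which can also be a marker within transgenes, stood at 23.2 and 25.8 FPKM in driven against 47.3 and 45.4 FPKM in UAS-TrpA1 libraries, a log2 difference of -0.73. The A-type potassium channel gene Shal and the amyloid precursor homologue Appl fell by 0.43 and 0.27 on the log2 scale.

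The largest single rises were those of a storage protein gene and a diptericin gene. Lsp1beta (2L, 898500 to 901316), which encodes a hexamerin storage protein of the fat body, had 815 and 845 FPKM in the driven libraries against 21.8 and 22.3 FPKM in the UAS-TrpA1 libraries. That is a log2 difference of 5.33 ± 0.036 (adjusted p = 1.69e-08), with the replicates of each group close together. DptA (2R, 18865765 to 18866260), which encodes the antibacterial peptide Diptericin A, had 139 and 141 FPKM in the driven libraries against 2.94 and 2.94 FPKM in the UAS-TrpA1 libraries, a log2 difference of 5.33 ± 0.046 (adjusted p = 2e-08). CAH5, a carbonic anhydrase gene, came next at 4.38 on that scale, where the size rests on the pseudocount. It had 18.2 and 18.9 FPKM in the driven libraries, while each UAS-TrpA1 library held 1 fragment. DptB, the neighbour of DptA, then stood at 4.06, with 97.3 and 106 FPKM in driven against 5.45 and 6.38 FPKM in UAS-TrpA1 libraries. CNMa, the gene of the neuropeptide CNMamide, had 13.8 and 11.97 FPKM in the driven libraries against 0.675 and 0.687 FPKM in the UAS-TrpA1 libraries. The odorant-binding protein gene Obp56a, the chitin deacetylase-like gene Cda9 and the antibacterial peptide gene Dro, which encodes Drosocin, rose by 3.46, 3.42 and 3.28. The rest of the 12 largest rises were CG15263, CG45045, CG42728 and CG8329, between 3.34 and 3.595. Both driven libraries stood above both UAS-TrpA1 libraries in each of these 12 genes, which the rule that chose them fixes.

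The largest falls reached near absence in the driven flies. CG7214 (2L, 7743682 to 7744839) had 0.749 and 1.25 FPKM in the driven libraries against 858 and 916 FPKM in the UAS-TrpA1 libraries, a log2 difference of -8.65 ± 0.11 (adjusted p = 8.02e-08). Acp1, an adult cuticle protein gene that lies next to it on 2L, had 0.545 and 0.908 FPKM in driven against 304 and 299.8 FPKM in UAS-TrpA1 libraries, and CG7203 and CG31904 in the same stretch fell by 3.72 and 3.20. These 4 neighbours on 2L fell together. Yp2 had 0.129 and 0.257 FPKM in the driven libraries against 393 and 404 FPKM in the UAS-TrpA1 libraries (log2 difference -8.23), and Yp1, beside it on X, had 0.0645 and 0.0644 FPKM in driven against 63.7 and 63.2 FPKM in UAS-TrpA1 libraries. Genes of digestion came next. The serine protease genes Jon25Bi and Jon25Bii had 0 and 0.3 FPKM in driven against 162 and 171 FPKM in UAS-TrpA1 libraries and 0 and 0.174 FPKM in driven against 121 and 129 FPKM in UAS-TrpA1 libraries, and Jon25Biii of the same cluster was at 0 in both driven libraries. These 3 are close copies, and their single values are uncertain. The aspartic protease gene Bace had 2.57 and 2.02 FPKM in driven against 397 and 417 FPKM in UAS-TrpA1 libraries. The trypsin gene thetaTry had no fragment in either driven library and 63.4 and 68.3 FPKM in the UAS-TrpA1 libraries, so it was at least 442-fold lower in driven flies, against a floor of 3 fragments in a library. CG8736, CG18404, Pebp1 and CG7542 complete the 12 largest falls, between -6.91 and -5.51.

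**Figure D3:**
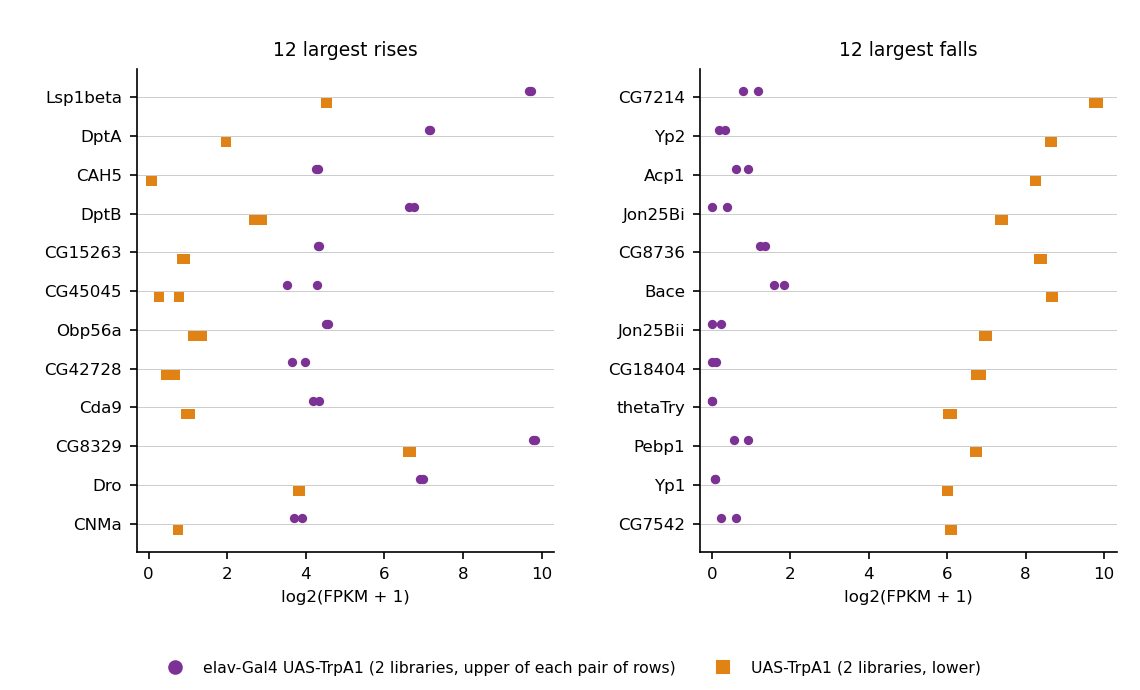
Level of the 12 genes with the largest rise (left) and the 12 with the largest fall (right) in each library, on the log2(FPKM + 1) scale. They were taken from genes past the threshold with a mean of 5 FPKM or more in a group and groups that do not overlap, which the choice therefore fixes. Circles are driven libraries and squares UAS-TrpA1 libraries.

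Genes under the detection floor in 1 group were mostly under it in the driven flies. There were 21 genes with under 3 fragments in each driven library and a mean of 2 FPKM or more in UAS-TrpA1 flies, and 4 genes with the reverse. Of the 21 genes, 10 had no fragment at all in the driven libraries. CG9682 was at least 330-fold lower, CG5767 at least 178-fold and CG8773 at least 114-fold, each against the floor of 3 fragments in a library. Pxd, a peroxidase gene, and Pgcl were at least 37.3-fold and 30.7-fold lower. Close to that limit stood CG18404 with 0 and 0.0855 FPKM in driven against 106 and 114 FPKM in UAS-TrpA1 libraries, Acbp5, an acyl-CoA-binding protein gene, with 0.154 and 0.154 FPKM in driven against 20.4 and 20.9 FPKM in UAS-TrpA1 libraries, and the alkaline phosphatase gene Alp9 with 0.0553 and 0.0276 FPKM in driven against 17.6 and 17.3 FPKM in UAS-TrpA1 libraries. The remaining protein-coding genes of the 21 were thetaTry, Yp1, Jon25Biii, CG8661, CG6277, CG31446, CG10477, CG11313, CG14820, CG4830 and CG13038, and the noncoding ones were snoRNA:Psi28S-2179 and lncRNA:CR33948. The 4 genes with under 3 fragments in each UAS-TrpA1 library included CAH5 and sncRNA:254. The others were the cecropin gene CecA2, with 7.62 and 5.7 FPKM in the driven libraries, and CG11349, with 3.22 and 3.37 FPKM. For sncRNA:254 there were 1 and 5 fragments in the driven libraries against 0 and 1 in the UAS-TrpA1 libraries, and it did not pass the test.

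Gene lists written from general knowledge of fly genes were then read against the background of 26.5% of genes higher and 25.2% lower. They were chosen with earlier results of these data known, so their shares are a description and no independent support. In 13 of the 48 lists at least 60% of the tested genes were called in 1 direction, a share set after the values were seen. Members can also pass the filter through 1 group alone. The 6 such lists called mainly higher were Imd-dependent genes, cytosolic ribosomal proteins, fat body markers, heat shock proteins and chaperones, lipid genes and the 4 Turandot genes. The 7 called mainly lower were female and yolk genes, muscle, oxidative phosphorylation, glycolysis and sugar metabolism, synaptic vesicle release, cuticle and acetylcholine signalling. Of 1289 tested genes in the lists 43 are in more than 1 list, and they are counted in each.

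**Figure D4:**
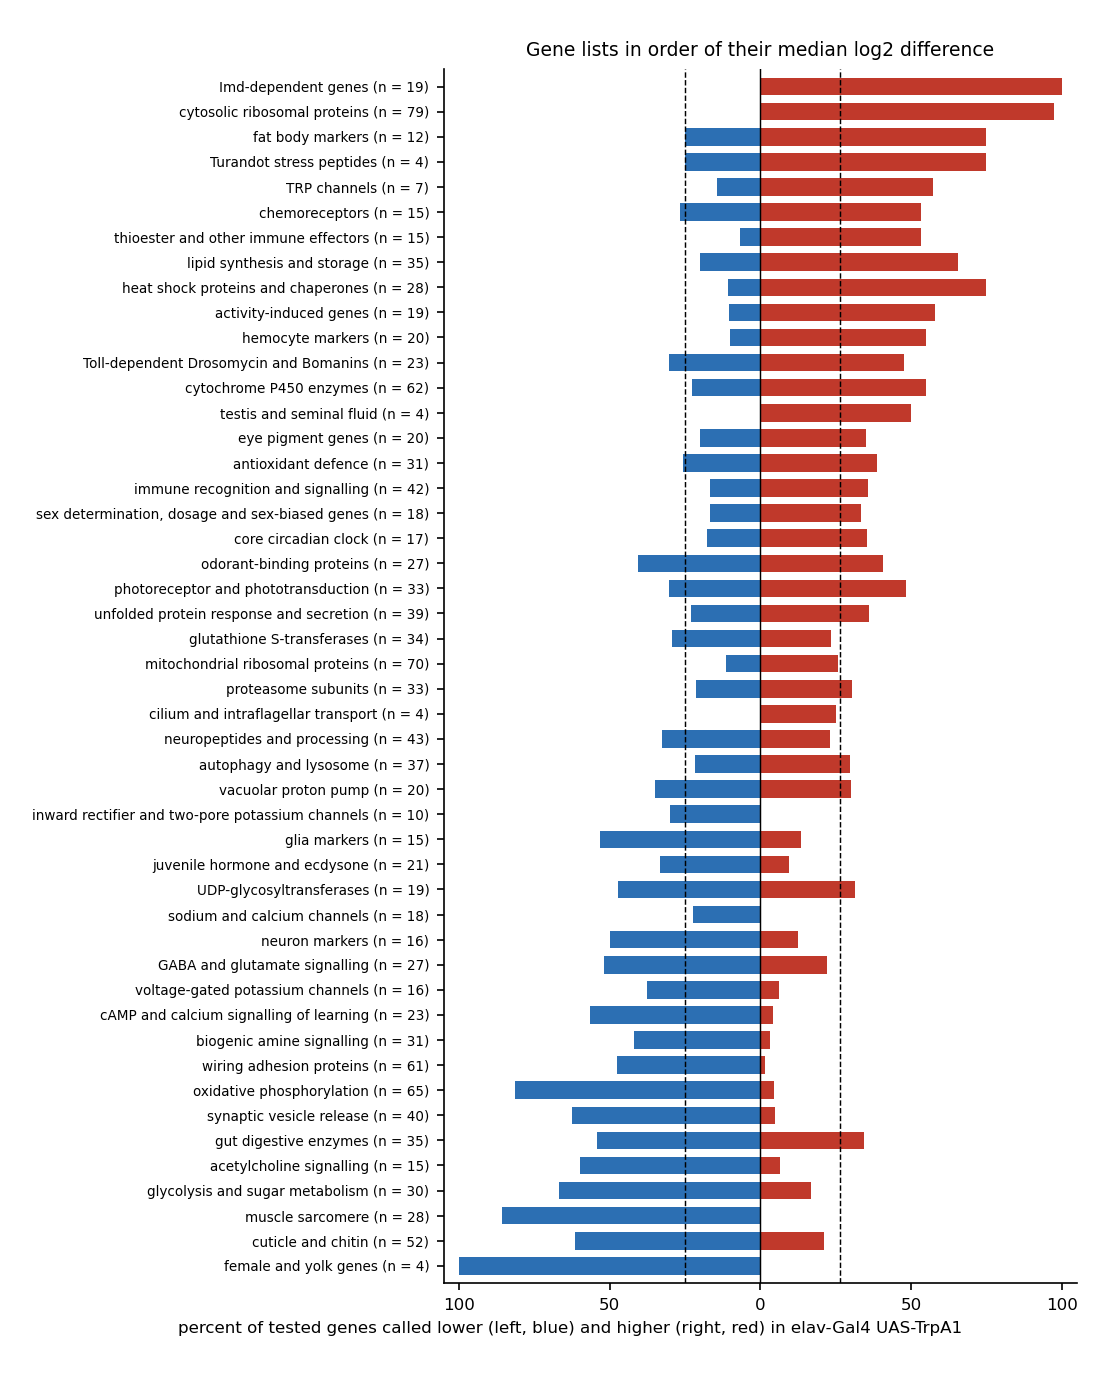
Percent of the tested genes of each of 48 lists called higher (red, to the right) and lower (blue, to the left) in driven flies, in order of the list median of the log2 difference. Dashed lines mark the share over all kept genes, 26.5% higher and 25.2% lower. All 19 Imd-dependent genes are called higher and 24 of 28 muscle genes lower.

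The Imd pathway is 1 of 2 NF-kB routes of fly immunity. It starts at peptidoglycan receptors on gut, fat body and other cells and switches on antibacterial peptide genes through the transcription factor Relish. The list of Imd-dependent genes holds 13 tested genes for antimicrobial peptides and 6 for recognition proteins and regulators. All 19 were higher in driven flies, with a median log2 difference of 1.85, against 0 for all genes, and the same 19 were called without the subtraction of the median and with quantile normalization. Their FPKM summed to 1116 and 1132 in the driven libraries against 356 and 358 in the UAS-TrpA1 libraries. Both diptericin genes were higher. All 4 attacin genes were higher and summed to 101.8 and 107.8 FPKM in the driven libraries against 15.04 and 16.68 FPKM in the UAS-TrpA1 libraries, with AttC at 82.9 and 86.2 FPKM in driven against 12.4 and 13.4 FPKM in UAS-TrpA1 libraries. All 4 cecropin genes were higher too, with a sum of 22.5 and 22.8 FPKM in the driven libraries against 1.098 and 2.006 FPKM in the UAS-TrpA1 libraries. Copies within the attacin, cecropin and diptericin families are similar, and reads may be split between them. Metchnikowin, an antifungal peptide encoded by Mtk, had 148 and 131 FPKM in driven against 58.05 and 56.2 FPKM in UAS-TrpA1 libraries. The 13 peptide genes had a median difference of 2.67 and the other 6 genes of the list a median of 0.85, a split made after the values were seen and not tested. Among those 6, the Relish gene Rel had 33.7 and 35.2 FPKM in driven against 27.6 and 28.7 FPKM in UAS-TrpA1 libraries (log2 difference 0.44). PGRP-LB, an amidase gene, and pirk, which both dampen the pathway, rose by 0.90 and 0.80. The secreted recognition protein genes PGRP-SB1, PGRP-SC2 and PGRP-SD rose by 1.1966, 1.32 and 0.67. The receptor gene PGRP-LC, which is not among the 19, rose by 0.57.

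The Toll pathway, the other NF-kB route, answers mainly to fungi and Gram-positive bacteria, and its effectors did not move as a block. Of 23 tested genes for Drosomycin, Bomanins and related effectors, 11 were higher and 7 lower, with a median of 0.20, and 9 were higher and 10 lower without the subtraction of the median. Drs, the Drosomycin gene, fell to 163 and 163 FPKM in the driven libraries, against 367 and 376 FPKM in the UAS-TrpA1 libraries (log2 difference -1.02). BomS6 rose (659.6 and 590.2 FPKM in driven against 201 and 219.9 FPKM in UAS-TrpA1 libraries) while BomBc1 fell (124 and 126 FPKM in driven against 464 and 461 FPKM in UAS-TrpA1 libraries). SPH93, a serine protease homologue gene, fell by 3.93 on the log2 scale, with 2.49 and 2.09 FPKM in driven against 55.3 and 54.8 FPKM in UAS-TrpA1 libraries. The thioester protein and related effector list had 8 of 15 genes higher and 1 lower, among them Listericin at 154 and 154 FPKM in driven against 72.0 and 75 FPKM in UAS-TrpA1 libraries and the thioester protein gene Tep4 at 52.7 and 53.6 FPKM in driven against 33.9 and 33.7 FPKM in UAS-TrpA1 libraries. Among 42 genes of immune recognition and signalling 15 were higher and 7 lower, and these counts turned to 10 and 15 without the subtraction of the median. GNBP3, a receptor gene for fungal glucans, rose by 0.93, and the JNK gene bsk fell by 0.49. Of the stress peptides of the Turandot family TotX and TotM rose by 1.02 and 0.63 and TotC fell by 0.97. TotA rose by 0.42, which turned to -0.09 with quantile normalization.

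Cytosolic ribosomal protein genes were raised together. Of 79 tested genes 77 were higher and 0 lower, with a median log2 difference of 0.80. With quantile normalization 64 were higher and 2 lower, and the median was 0.31, so the size depends on the scaling. The list took 135620.1 and 140891 summed FPKM in the driven libraries, against 87784 and 89828 FPKM in the UAS-TrpA1 libraries. RpS29 had 1854 and 1861 FPKM in driven against 871 and 840.3 FPKM in UAS-TrpA1 libraries, a log2 difference of 1.28, and RpS23 and RpS20 rose by 1.18 and 1.17. Both subunits moved alike, with medians of 0.79 over 47 genes of the large subunit and 0.82 over 32 of the small one. Ribosomal proteins of mitochondria did not follow, with 18 of 70 higher, 8 lower and a median of 0.01 (7 higher and 32 lower without the subtraction). Short and abundant transcripts were more often higher in general. Among the 2224 genes with the shortest exon length 37.3% were higher and among the 2221 with the longest 13.5%. Among the 2245 genes with the highest mean FPKM 46.1% were higher, against 14.6% of the 2245 with the lowest. The part of length and abundance in the rise of ribosomal protein genes was not tested.

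Most genes listed for mitochondrial respiration were lower. Of 65 tested genes of oxidative phosphorylation 53 were lower and 3 higher, with a median of -0.26. The falls were small and close to each other. Picked by symbol, all 12 tested ATPsyn genes of the ATP synthase were lower (median -0.42). So were all 9 COX genes of cytochrome c oxidase (median -0.28) and 23 of 31 ND genes of complex I (median -0.24). Subunits with other symbols are not in these counts. Of 14 kept genes of the mitochondrial genome 35.7% were lower and 7.14% higher, with a median of 0.0018. ATPsynbeta, a catalytic subunit of the ATP synthase, had 689 and 699 FPKM in the driven libraries against 1177 and 1162 FPKM in the UAS-TrpA1 libraries. ATPsynC, the gene of the proton-carrying ring, had 699.7 and 718 FPKM in driven against 1162 and 1157 FPKM in UAS-TrpA1 libraries. The exceptions were ND-13B, ND-PDSW and ND-51 of complex I, which were higher by 0.21, 0.10 and 0.10, and none of which was called higher without the subtraction or with quantile normalization. ND-PDSW and ND-51 turned to -0.06 and -0.06 without the subtraction of the median and to -0.09 and -0.02 with quantile normalization.

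Genes that store and break down sugar were lower as well, with 20 of 30 genes of glycolysis and sugar metabolism lower, 5 higher and a median of -0.43. The enzymes of glycogen turnover fell most. AGBE, the branching enzyme gene, had 58.8 and 61.1 FPKM in the driven libraries against 152 and 152 FPKM in the UAS-TrpA1 libraries, and Glys, the glycogen synthase gene, had 33.7 and 33.2 FPKM in driven against 83.6 and 87.1 FPKM in UAS-TrpA1 libraries. Glyp, the phosphorylase gene, fell by 0.92, and UGP, whose product makes UDP-glucose for glycogen, by 0.71. The alpha-glucosidase gene tobi, a target of insulin and glucagon-like signals, went the other way with 101 and 103.8 FPKM in driven against 26.2 and 31.1 FPKM in UAS-TrpA1 libraries. Lipid genes rose more often than they fell, at 23 higher and 7 lower of 35 (median 0.29). The perilipin gene Lsd-1 had 550.1 and 563 FPKM in driven against 288 and 278 FPKM in UAS-TrpA1 libraries, FASN1, a fatty acid synthase gene, rose by 0.93 and the acyltransferase gene Agpat3 by 1.102. The lipase gene mag fell (0.0704 and 0.176 FPKM in driven against 1.105 and 1.53 FPKM in UAS-TrpA1 libraries).

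Transcripts of tissues outside the nervous system moved widely, and since these are bulk samples, fewer cells of a type and less RNA per cell cannot be told apart. Muscle genes were lower in driven flies without exception among those called, at 24 of 28, with a median of -0.71 and 0 higher. The sarcomere list summed to 1845 and 1851 FPKM in the driven libraries, against 3851 and 3866 FPKM in the UAS-TrpA1 libraries. Act79B, a muscle actin gene, had 149 and 159 FPKM in the driven libraries against 416 and 434 FPKM in the UAS-TrpA1 libraries. The myosin light chain genes Mlc2 and Mlc1 had log2 differences of -1.22 and -1.1203, all 5 troponin C genes fell (median -0.99), and Mhc, the myosin heavy chain gene, fell by 0.55.

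Cuticle genes fell with a wide spread. Of 52 tested genes for cuticle and chitin 32 were lower and 11 higher, with a median of -0.77. Such genes can pass the filter through the UAS-TrpA1 libraries alone. Without the filter 34 of 117 were lower and 10 higher, with a median of -0.0053. Cpr100A had 5.7 and 5.01 FPKM in the driven libraries against 105.5 and 111 FPKM in the UAS-TrpA1 libraries, and the neighbouring genes Vajk2 and Vajk3 fell by 3.56 and 3.90, with 3.75 and 3.38 FPKM in driven against 71.7 and 78.3 FPKM in UAS-TrpA1 libraries for Vajk3. Cpr72Ec was the main exception with 222 and 218 FPKM in driven against 38.2 and 36.6 FPKM in UAS-TrpA1 libraries, a log2 difference of 2.69. Several genes of dopamine metabolism, part of which serves cuticle tanning, were lower in the same libraries. ple, the tyrosine hydroxylase gene, whose product also makes dopamine in neurons, had 6.95 and 7.22 FPKM in the driven libraries against 25.3 and 23.5 FPKM in the UAS-TrpA1 libraries. Pu, t and e fell by 0.77, 0.94 and 0.70, and Ddc by 0.42.

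**Figure D5:**
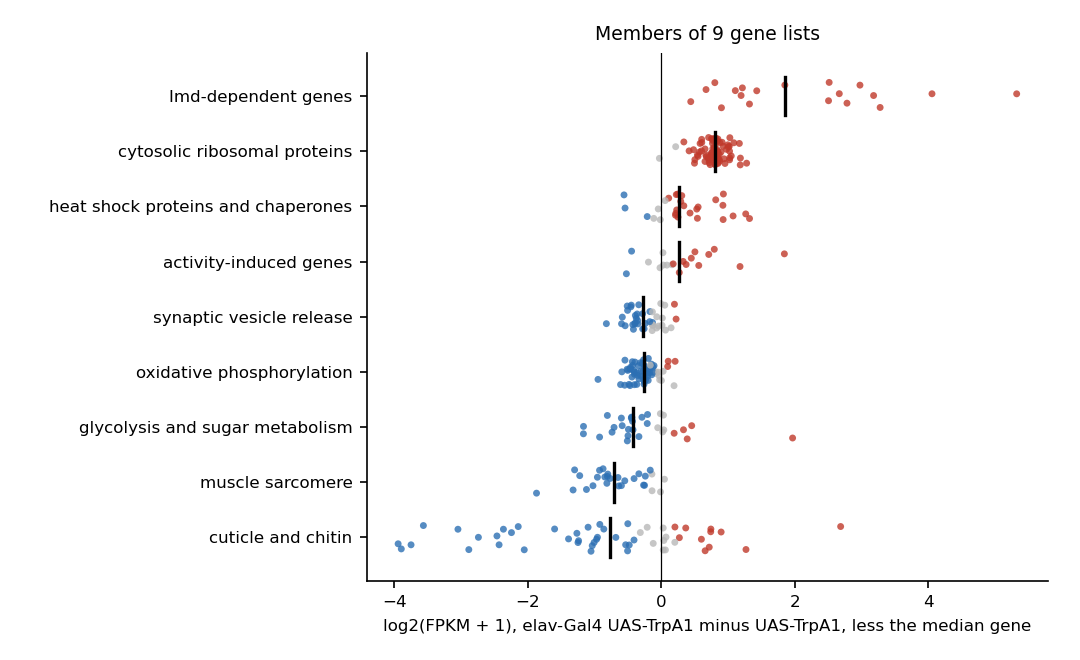
Log2(FPKM + 1) difference of driven minus UAS-TrpA1 flies, less the median gene, for each tested member of 9 lists. Points are genes (red called higher, blue called lower, grey not called; vertical scatter within a row is arbitrary) and bars are list medians, which lie between 1.85 for Imd-dependent genes and -0.77 for cuticle and chitin.

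Digestive enzyme genes split by family. Of 35 tested genes 12 were higher and 19 lower, and the sum over the list was 8022 and 8307 FPKM in the driven libraries against 10678 and 10878 FPKM in the UAS-TrpA1 libraries. Without the filter 13 of 46 were higher and 19 lower. Maltases and amylases, which digest starch, were mostly higher. They counted 6 higher and 2 lower of 9 maltase genes, and 2 higher of 2 amylase genes. Mal-A4 had 7.83 and 8.84 FPKM in driven against 0.685 and 0.787 FPKM in UAS-TrpA1 libraries, Mal-A1 had 221 and 224 FPKM in driven against 79.4 and 79.1 FPKM in UAS-TrpA1 libraries and Amy-p had 1558 and 1586 FPKM in driven against 711 and 725 FPKM in UAS-TrpA1 libraries. Jonah proteases were mostly lower, at 7 of 9 with 1 higher, and summed to 1875 and 1929 FPKM in the driven libraries against 4476 and 4514 FPKM in the UAS-TrpA1 libraries. Of 6 tested trypsin genes 3 were lower and 1 higher. Both directions thus occur among transcripts of 1 organ, in flies labelled as brain or head samples. Amylase, maltase and protease genes have near-identical copies, and reads may be split between them.

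Fat body genes were mostly higher, at 9 of 12 with 3 lower and a median of 0.74. Their sum was 17718 and 17559 FPKM in the driven libraries, against 3371 and 3378.5 FPKM in the UAS-TrpA1 libraries. Most of it was Obp99b, a secreted odorant-binding protein gene that is stronger in males, with 15660.0 and 15481 FPKM in the driven libraries against 2441 and 2459.7 FPKM in the UAS-TrpA1 libraries. Lipase-like CG5966 had 44.2 and 45.02 FPKM in driven against 8.17 and 7.99 FPKM in UAS-TrpA1 libraries. Obp99a, a female-biased relative, fell by 3.06, with 3.92 and 2.98 FPKM in driven against 40.5 and 39.8 FPKM in UAS-TrpA1 libraries, and the storage protein gene Lsp1gamma fell by 1.95. Beside these genes stand the yolk protein sums given above, which differ between the groups. Their part in the fat body result was not tested. A list of 18 genes of sex determination, dosage compensation and sex-biased expression had 6 higher and 3 lower (5 and 7 without the subtraction of the median). Of the 6, Obp99b, fit and sxe2 are sex-biased genes of the head, and the first 2 of these are also counted in the fat body list. sxe2 and fit rose by 0.76 and 0.44. The other 15 genes, grouped after the values were seen, had 3 higher (both roX genes and mle) and 3 lower (Sxl, Clamp and fru). The male courtship regulator gene fru fell by 0.82, and msl-2, the male-limited subunit gene of the dosage compensation complex, had 6.22 and 6.51 FPKM in driven against 6.72 and 6.65 FPKM in UAS-TrpA1 libraries (log2 difference 0.10, not called). Blood cell genes were higher in 11 of 20 and lower in 2, but in 5 and 5 without the subtraction of the median. The prophenoloxidase genes PPO1 and PPO2, which are used in melanization, rose by 1.75 and 0.95.

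Neuronal genes were lower on balance by small amounts. Of 16 neuron markers 8 were lower and 2 higher, with a median of -0.15. Their sum was 395 and 376 FPKM in the driven libraries against 528 and 514 FPKM in the UAS-TrpA1 libraries. The count is sensitive to 1 library, since 4 markers were lower without UAS-TrpA1 replicate 1, 5 without UAS-TrpA1 replicate 2 and 5 without driven replicate 2. nrv3, a sodium pump subunit gene of neurons, fell by 0.56, and Syx1A, a syntaxin gene of transmitter release, had 7.19 and 6.37 FPKM in driven against 10.48 and 10.7 FPKM in UAS-TrpA1 libraries. The synaptobrevin gene nSyb, with 119 and 113 FPKM in driven against 112 and 114 FPKM in UAS-TrpA1 libraries, was called higher by 0.20, and by 0.04 without the subtraction of the median, where it was not called. Of 15 glial markers 8 were lower and 2 higher (3 lower without UAS-TrpA1 replicate 2 and 5 without UAS-TrpA1 replicate 1). The glial sodium pump subunit gene nrv2 had 114 and 114.7 FPKM in driven against 223 and 224 FPKM in UAS-TrpA1 libraries, a log2 difference of -0.80.

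The machinery of synaptic transmission showed the same tilt. Of 40 tested genes of synaptic vesicle release 25 were lower and 2 higher, with a median of -0.27. Without the subtraction of the median 35 were lower and 0 higher, but with a replicate block or no mean-variance trend 23 were lower and 2 higher. With any library left out fewer of these genes were called lower, while the list median lay between -0.28 and -0.24. comt, the NSF gene that takes apart used fusion complexes, had 46.2 and 47.3 FPKM in the driven libraries against 77.4 and 82.0 FPKM in the UAS-TrpA1 libraries. shi, the dynamin gene that retrieves vesicles, had 31.7 and 32.0 FPKM in driven against 54.3 and 53.7 FPKM in UAS-TrpA1 libraries, and Rop, a fusion regulator gene, fell by 0.45. Receptor and transmitter genes also fell more often than they rose. Of 15 genes of acetylcholine signalling 9 were lower and 1 higher, with ChAT, which makes the transmitter, at 4.23 and 4.76 FPKM in driven against 8.08 and 8.98 FPKM in UAS-TrpA1 libraries and the receptor subunit gene nAChRalpha6 as the 1 rise (0.68). Without UAS-TrpA1 replicate 1, 5 of them were lower. Of 27 genes of GABA and glutamate signalling 14 were lower and 6 higher. Gad1, the gene of the enzyme that makes GABA, had 36.8 and 38.0 FPKM in the driven libraries against 80.8 and 82.2 FPKM in the UAS-TrpA1 libraries, and the GABA transporter gene Gat fell by 0.73. The glutamate receptor genes Grik, GluRIIC and GluRIIA rose by 0.73, 0.73 and 0.60. The GABA and glutamate falls numbered 9 without driven replicate 2, 8 without UAS-TrpA1 replicate 1 and 9 without UAS-TrpA1 replicate 2.

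Ion channel genes differed by little. Of 16 genes of voltage-gated potassium channels 6 were lower and 1 higher, and besides Shal these included Hk, a beta subunit gene (7.27 and 7.28 FPKM in driven against 12.4 and 12.4 FPKM in UAS-TrpA1 libraries), and Ih, of the hyperpolarization-activated channel (-0.38). Only 3 were lower without UAS-TrpA1 replicate 1 and 4 without UAS-TrpA1 replicate 2. Of 18 sodium and calcium channel genes 4 were lower and 0 higher. That count was 13 without the subtraction of the median, 0 without UAS-TrpA1 replicate 1, 1 without UAS-TrpA1 replicate 2 and 2 without driven replicate 2. The sodium channel-like gene NaCP60E fell by 0.35. Of 7 tested TRP channel genes 4 were higher and 1 lower, led by trpl of the photoreceptor, with 857 and 894 FPKM in driven against 424 and 433 FPKM in UAS-TrpA1 libraries. Genes of cAMP and calcium signalling in learning were lower in 13 of 23 and higher in 1, and the calbindin gene Cbp53E had 32.8 and 32.6 FPKM in driven against 69.9 and 70.4 FPKM in UAS-TrpA1 libraries. Their falls numbered 7 without either UAS-TrpA1 replicate. Cell-surface genes of neuronal wiring were lower in 29 of 61 and higher in 1, with the immunoglobulin gene bdl at 79.0 and 78.8 FPKM in driven against 149.7 and 152 FPKM in UAS-TrpA1 libraries. With 1 library left out the wiring falls numbered 10 (either UAS-TrpA1 library), 16 (driven replicate 2) and 20 (driven replicate 1).

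Neuropeptide genes moved one by one. Of 43 tested genes 10 were higher and 14 lower, with a median of -0.03 (6 and 25 without the subtraction). Nplp3, the most abundant member named, had 1115 and 1127 FPKM in the driven libraries against 6002 and 6154 FPKM in the UAS-TrpA1 libraries, a log2 difference of -2.28 ± 0.03. spab and Hug, the hugin gene of feeding circuits, fell by 1.08 and 0.63. Among insulin-like peptide genes of the brain, Ilp5 fell by 0.93 with 17.0 and 19.98 FPKM in driven against 39.9 and 41.0 FPKM in UAS-TrpA1 libraries, while Ilp2 had 109.7 and 114 FPKM in driven against 124 and 111 FPKM in UAS-TrpA1 libraries and Ilp3 18.0 and 21.4 FPKM in driven against 24.1 and 21.3 FPKM in UAS-TrpA1 libraries, and neither was called. Besides CNMa, the drosulfakinin gene Dsk had 255 and 267 FPKM in driven against 120.1 and 135 FPKM in UAS-TrpA1 libraries and the glycoprotein hormone gene Gpb5 rose by 1.08. The monoamine list had 13 of 31 genes lower and 1 higher, and its leading falls were ple, t and Pu, named above.

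Genes known to be switched on by neuronal firing were more often higher than lower. Of 19 tested genes 11 were higher and 2 lower, with a median of 0.27, and 8 were higher and 3 lower without the subtraction of the median. Arc1, whose product forms capsid-like particles that carry RNA between cells, had 96.0 and 98.05 FPKM in the driven libraries against 30.8 and 28.3 FPKM in the UAS-TrpA1 libraries, a log2 difference of 1.85 ± 0.051 (adjusted p = 1.17e-06). Its neighbour and relative Arc2 had 7.9 and 7.19 FPKM in driven against 2.58 and 3.95 FPKM in UAS-TrpA1 libraries, with a log2 difference of 1.18. CG13868, CG14186 and the transcription factor gene cbt rose by 0.80, 0.71 and 0.56. The nuclear receptor gene Hr38, often used as a reporter of firing in insect brains, had 1.08 and 1.14 FPKM in driven against 0.787 and 0.548 FPKM in UAS-TrpA1 libraries and rose by 0.50. sr and kay, of the Egr and Fos families, rose by 0.37 and 0.45, and sr was not called without the subtraction of the median. The 2 genes that fell were CG32264, with 6.63 and 6.41 FPKM in driven against 10.3 and 10.6 FPKM in UAS-TrpA1 libraries (log2 difference -0.44), and the glycerol kinase gene Gk2, with 22.6 and 23.9 FPKM in driven against 38.6 and 37.3 FPKM in UAS-TrpA1 libraries (log2 difference -0.52). Driven and UAS-TrpA1 libraries did not overlap for 16 of the 19 genes (84.2%), near the 80.9% of all kept genes.

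Genes of the eye and the clock showed single large differences within mixed lists. Photoreceptor genes were higher in 16 of 33 and lower in 10, with a median of 0.04, and 12 were higher and 16 lower without the subtraction of the median. All 7 rhodopsin genes were called higher, and 5 of them without the subtraction of the median or with quantile normalization. Rh6 had 371 and 377 FPKM in driven against 186 and 187 FPKM in UAS-TrpA1 libraries, a log2 difference of 1.17, and Rh4 and Rh5 rose by 0.79 and 0.61. ninaE, the gene of the main rhodopsin, had 19888 and 20426 FPKM in driven against 11968 and 11884 FPKM in UAS-TrpA1 libraries and rose by 0.92, but its difference was -0.01 with quantile normalization. eys, a matrix gene of the retina, fell by 1.24, and the scaffold gene inaD, which holds the signalling complex together, by 0.70. Of 17 clock genes 6 were higher and 3 lower, and 3 were higher and 7 lower without the subtraction of the median. tim, a negative element of the clock, had 110.2 and 111 FPKM in the driven libraries against 54.1 and 53.2 FPKM in the UAS-TrpA1 libraries, and vri and Pdp1, of its second loop, rose by 0.81 and 0.73. per had 24.2 and 25.02 FPKM in driven against 23.9 and 24.6 FPKM in UAS-TrpA1 libraries, a log2 difference of 0.18 that was called only with the median subtracted. Clk had 1.21 and 1.48 FPKM in driven against 1.99 and 1.98 FPKM in UAS-TrpA1 libraries and was not called. tim, vri and Pdp1 cycle over the day, and no time of day is given in the labels.

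Of 28 genes for heat shock proteins and chaperones 21 were higher and 3 lower, with a median of 0.27. Without the subtraction of the median 12 were higher and 6 lower. Hsp26, a small heat shock protein gene, had 23.7 and 26.2 FPKM in the driven libraries against 10.3 and 10.9 FPKM in the UAS-TrpA1 libraries, and Hsp23 and Hsp27 rose by 1.27 and 0.92. The heat-inducible genes Hsp68 and Hsp70Ab had 11.8 and 10.8 FPKM in driven against 6.14 and 6.33 FPKM in UAS-TrpA1 libraries and 2.56 and 2.38 FPKM in driven against 0.736 and 0.952 FPKM in UAS-TrpA1 libraries, both low. The Hsp70 copies are near-identical, so the value of Hsp70Ab is uncertain. All 8 CCT chaperonin genes were higher (median 0.32; 4 without the subtraction), whereas Hsp83, the Hsp90 gene, fell by 0.56, with 109 and 112 FPKM in driven against 179.9 and 185 FPKM in UAS-TrpA1 libraries. The unfolded protein response list had 14 of 39 genes higher and 9 lower (7 and 19 without the subtraction), among them crc, the ATF4 gene, at 103 and 103 FPKM in driven against 67.5 and 66.1 FPKM in UAS-TrpA1 libraries. Antioxidant genes were near the background, at 12 higher and 8 lower of 31 (4 and 13 without the subtraction, 8 and 12 with quantile normalization), and the mitochondrial superoxide dismutase gene Sod2 fell by 0.49. Proteasome genes, at 10 higher and 7 lower of 33, and autophagy and lysosome genes, at 11 and 8 of 37, were near it too, and their counts were 3 and 19, and 9 and 21, without the subtraction. The lysosomal sphingolipid transporter gene spin rose by 0.96, with 67.1 and 69.8 FPKM in driven against 39.3 and 38.8 FPKM in UAS-TrpA1 libraries.

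Genes of chemical sensing and detoxification went both ways. Cytochrome P450 genes were higher in 34 of 62 and lower in 14 (21 and 18 without the subtraction of the median). The neighbours Cyp309a1 and Cyp309a2 had 85.8 and 89.5 FPKM in driven against 32.8 and 34.9 FPKM in UAS-TrpA1 libraries and 37.7 and 38.1 FPKM in driven against 12.1 and 13.3 FPKM in UAS-TrpA1 libraries, and Cyp6d5 fell by 0.82. UDP-glycosyltransferase genes were lower in 9 of 19 and higher in 6, with Ugt37A3 at 4.71 and 4.55 FPKM in driven against 25.3 and 25.9 FPKM in UAS-TrpA1 libraries. Glutathione S-transferase genes were higher in 8 and lower in 10 of 34, with GstD9 at 0.96 and GstE13 at -1.21. Odorant-binding protein genes were higher in 11 and lower in 11 of 27, and the antennal genes Obp83a and Obp19a fell by 1.14 and 1.05. Orco, the coreceptor gene of olfactory neurons, had 4.31 and 5.4 FPKM in driven against 10.7 and 10.97 FPKM in UAS-TrpA1 libraries and fell by 0.86, while the ionotropic receptor genes Ir75a and Ir75b rose by 1.03 and 0.85.

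The authors also deposited tables of enriched annotation terms for this comparison, and their directions matched those found here for every gene that could be compared. Both come from the same libraries, so the match is no independent support. The smallest differences here among the authors' genes were 0.62 (up) and 0.41 (down) in size on the log2 scale. The authors' deposited tables listed 212 genes as up and 238 as down among annotated terms. Of these, 196 and 203 genes were kept here, and all 196 were higher and all 203 lower. Of 453 terms in the authors' deposited table, 78 had a false discovery rate under 0.05. The authors' deposited table gives the response to bacterium with 27 genes up and 9 down (FDR = 1.15e-07), and the structural constituents of cuticle with 3 up and 19 down (FDR = 4.85e-08). The KEGG pathway of DNA replication, in the authors' deposited table, had 1 gene up and 7 down (FDR = 0.0104), whereas the GO term of that name in the authors' deposited table had 1 up and 9 down (FDR = 0.565). Here 3 genes of the MCM helicase, which opens DNA for replication, passed the filter, and 2 of them fell (median -0.48). The KEGG lysosome pathway, with 0 up and 12 down, and the ribosome, with 13 up and 0 down, did not reach that level in the authors' deposited table (FDR = 0.211 and 0.203).

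The genes with the largest falls and rises also varied between other genotypes of the series. These are log2 differences less the median gene of each contrast, with no test. Of the 12 largest falls, 11 were at least 1 log2 unit higher in elav-Gal4 alone than in UAS-APP. In elav-Gal4 UAS-APP against the same UAS-APP flies, 3 of 10 were at least 1 unit higher and 7 at least 1 unit lower, and these contrasts share UAS-APP libraries. In Shal495 against w1118, 7 were at least 1 unit higher and 1 lower. Of the 12 largest rises, 2 were at least 1 unit higher and 6 lower in elav-Gal4 alone than in UAS-APP. By the same size 0 were higher and 7 lower in elav-Gal4 UAS-APP than in UAS-APP. In Shal495 against w1118, 2 of 11 were higher and 2 lower. In these separately normalized tables CG7214 stood at 101 and 107 FPKM in the driver alone, at 135 and 134 in elav-Gal4 UAS-APP, at 0.687 and 0.764 in UAS-APP, at 7.94 and 140.4 in Shal495 and at 0.99 and 2.62 in w1118. DptA stood at 42.7 to 70.8 FPKM in the libraries of elav-Gal4 alone and elav-Gal4 UAS-APP, at 27.8 and 33.5 in UAS-APP, at 9.48 and 13.3 in Shal495 and at 7.16 and 53.3 in w1118. Both genes thus also varied between lines without UAS-TrpA1. The 2 libraries of a line differed widely as well, for DptA in w1118 and for CG7214 in Shal495.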

How the data were processed

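Poly(A) RNA of 4 libraries was compared, 2 of elav-Gal4 UAS-TrpA1 flies and 2 of UAS-TrpA1 flies. Per the labels' protocols, RNA was enriched on oligo-dT beads and made into NEBNext Ultra libraries, with no strand marking stated, so fragments of overlapping and antisense genes cannot be told apart. The authors deposited FPKM per gene and library. The submitters' processing notes name BDGP6, Bowtie2 2.2.3, HISAT2 2.1.0 and TopHat2. No source used here names the tool that computed FPKM. Gene symbols were matched for 99.1% of identifiers, and 99.2% of genes had the coordinates of Ensembl's BDGP6 annotation. With the union of exons as gene length, FPKM gave fragments within 0.02 of a whole number for 98.7% to 98.8% of genes, from which library totals were taken. The authors' deposited annotation tables give counts of genes, p-values and false discovery rates.

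Genes with 1 FPKM or more in at least 2 libraries were put on the log2(FPKM + 1) scale and tested by limma 3.58.1 (R 4.3.3) using empirical Bayes moderation, a mean-variance trend and Benjamini-Hochberg adjustment at 0.05. The median difference of all kept genes was subtracted from the driven group first. The pseudocount of 1 understates differences of weak genes. SE is the moderated standard error. On simulated data with dispersion 0.005 the procedure recovered 90 of 94 genes set to differ by 1 on the log2 scale and 97 of 97 set to differ by 2, with 10 false calls among 8692 genes. With dispersion 0.02 it recovered 75 of 97 and 96 of 97, with 15 false calls. Only 200 genes were set to differ, with as many up as down. The simulation therefore gives no error rate for data in which a large share of genes differ or the median gene shifts.

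Libraries were not treated as paired by number in the main fit. The replicate differences of the groups correlated across 8980 genes at 0.0014, which cannot show how the libraries were collected. Genes named are TrpA1, elav, w, Shal and Appl, the 12 largest rises and 12 largest falls (mean of 5 FPKM or more in a group, no overlap), genes under 3 fragments in 1 group with 2 FPKM or more in the other, and up to 4 members per list and direction with the smallest adjusted p. Other list members named were chosen after their values were seen. The 48 lists and their members were chosen with earlier results of these data known. As alternatives the fit was repeated without the median subtraction, without the filter, with 5 FPKM as the filter, with 0.1 as pseudocount, with quantile normalization, a replicate block, no trend, a fold minimum, voom on recovered fragments and each library left out. Python 3.11.15, pandas 2.3.3, numpy 2.4.6 and matplotlib 3.10.9 were used.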

Additional observations from a re-analysis of the deposited data

How the results depend on the processing

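The count of 4643 changed genes lay between 3955 (5 FPKM as the filter) and 5439 (median not subtracted) over those alternatives and 0.1 as pseudocount, no filter, quantile normalization, no trend and voom on recovered fragments. With each library left out it lay between 3299 and 4063, where the lone library of a group is assumed to vary like the other group. A fold minimum of 1 on the log2 scale left 553 genes, 286 higher and 267 lower. Without subtraction of the median 1495 were higher and 3944 lower, and without a filter 1843 were higher and 2660 lower (40.9% and 59.1% of the calls). With 1 library left out 1790 to 2141 were higher and 1509 to 1957 lower.

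TrpA1 kept its direction, with log2 differences of 0.58 to 1.01 over the alternatives and 0.70 to 0.78 with a library left out. At 0.74 it did not reach the fold minimum, and it gave no value under the filter at 5 FPKM or in voom, where its fragments did not come out whole.

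The largest rises and falls and the genes at the floor kept their direction and their side of the threshold in 569 of 571 values. The other 2 moved past it. These genes were chosen for large differences in the same libraries, which largely fixes that count, so it is a description. Among all named genes other than TrpA1, more calls were lost. With the direction kept, 15 were lost without median subtraction, 11 without the filter and 9 with quantile normalization. Others were lost with a library left out. Single genes turned direction in 8 values. Without median subtraction Vha16-1 was at -0.0043, ND-PDSW at -0.0568 and ND-51 at -0.0650. With quantile normalization ninaE was at -0.0117, TotA at -0.0907, Vha16-1 at -0.0101, ND-PDSW at -0.0866 and ND-51 at -0.0174. The cause was not tested.

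The replicate number as a block gave 4596 changed genes, 2389 higher and 2207 lower, and TrpA1 at 0.74. It changed the call of 4 named genes. elav (adjusted p = 0.0603), Sxl and Snmp2 lost it and sncRNA:254 gained it. Depth limits genes near 3 fragments, and p-values rest on 2 libraries a group.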
